A study of Brachypodium distachyon with 12 samples.

Results

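Roots were compared with shoots of 4-week-old Brachypodium distachyon, a grass and laboratory relative of the cereals, in the 6 of 12 RNA-seq libraries taken at week 4. The libraries were chosen by their labels alone, 3 from whole roots and 3 from whole shoots of wild-type plants of the line Bd21-3. Of 39068 genes in the deposited table, 26463 had enough counts to be tested, and each is described below by its best-match protein name, a statement of similarity in sequence only. Plants floated on 40 mL of liquid MS medium at 0.5 strength, 2 seedlings to a vessel, at 22 °C with 16 h light and 8 h dark. The biological replicates came from different plants, and the labels do not say whether the root and the shoot of a given number came from the same plants. The other 6 libraries, 3 of whole roots and 3 of whole shoots of the same line at week 2, were used to ask whether an organ difference had another size in younger plants.

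A grass shoot carries out photosynthesis in leaf mesophyll cells, is sealed by a waxy cuticle, and exports sucrose through the phloem. Roots live on that sucrose, take up water and mineral ions across an endodermis sealed by lignin and suberin, and push a growing tip through the medium behind a root cap. Grasses acquire iron with secreted mugineic acids and take up silicon with dedicated channels. In whole organs, fewer cells of a type and less RNA per cell cannot be told apart.

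The week 4 libraries held 20773281 to 24119000 counts each. Values below are TMM-scaled counts per 1e+06 counts (CPM), listed in the order of replicates 1, 2 and 3, and differences are root minus shoot on the log2 scale with their standard error. After this scaling the libraries have no common total. Summed CPM over all genes averaged 890426.5 in roots and 1152607.8 in shoots, a ratio of roots to shoots of 0.7725. A gene was called when its adjusted p in edgeR's quasi-likelihood test was below 0.05. The first principal component separated the organs and held 90.4% of the variance, and shoot replicate 1 stood apart from the other shoot libraries on the second, with a score of 49.0 against -12.1 and -32.6. The organ labels were checked against marker genes. Summed CPM of 11 root cap domain genes was 636, 836 and 776 in roots and 1.21, 1.82 and 0.953 in shoots. Summed CPM of 21 chlorophyll a-b binding genes was 7261, 6645 and 6310 in roots and 63173, 86337 and 69885 in shoots, so roots held a clear level of these transcripts but no root library came near a shoot library. Other genes planned as root markers did not all lie on the root side. Casparian strip membrane protein 1, chosen after its values were seen, had no count in week 4 shoots, but nicotianamine synthase 9 was higher in shoots, as given below. High-affinity nitrate and phosphate transporters were planned as root markers too, but were not checked as a group. Inorganic phosphate transporters 1-8 and 1-11 were higher in shoots and PHO1-2 in roots, as given below.

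The organs differed at most genes. Of the tested genes, 16111 (60.9%) were called, 8571 (32.4%) higher in roots and 7540 (28.5%) higher in shoots, and for 17719 genes (67.0%) the 3 root values did not overlap the 3 shoot values. Most genes named below were drawn from called genes without overlap, so their separation was fixed by that choice and is not a result. This holds wherever a later sentence states that such a gene did not overlap between the organs. The median difference over all tested genes was 0.04. Among the called genes, 5497 were at least 2-fold higher in roots and 5025 in shoots, and at the far end 1049 were at least 32-fold higher in roots and 772 in shoots. With at least 10 CPM in the organ of expression, 121 root genes had no count in any week 4 shoot library and 55 shoot genes had no count in any week 4 root library. Shoot RNA was concentrated in fewer genes. From 751 to 1026 genes made up 50% of the counts of a shoot library, against 1700 to 1772 genes in a root library.

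**Figure D1:**
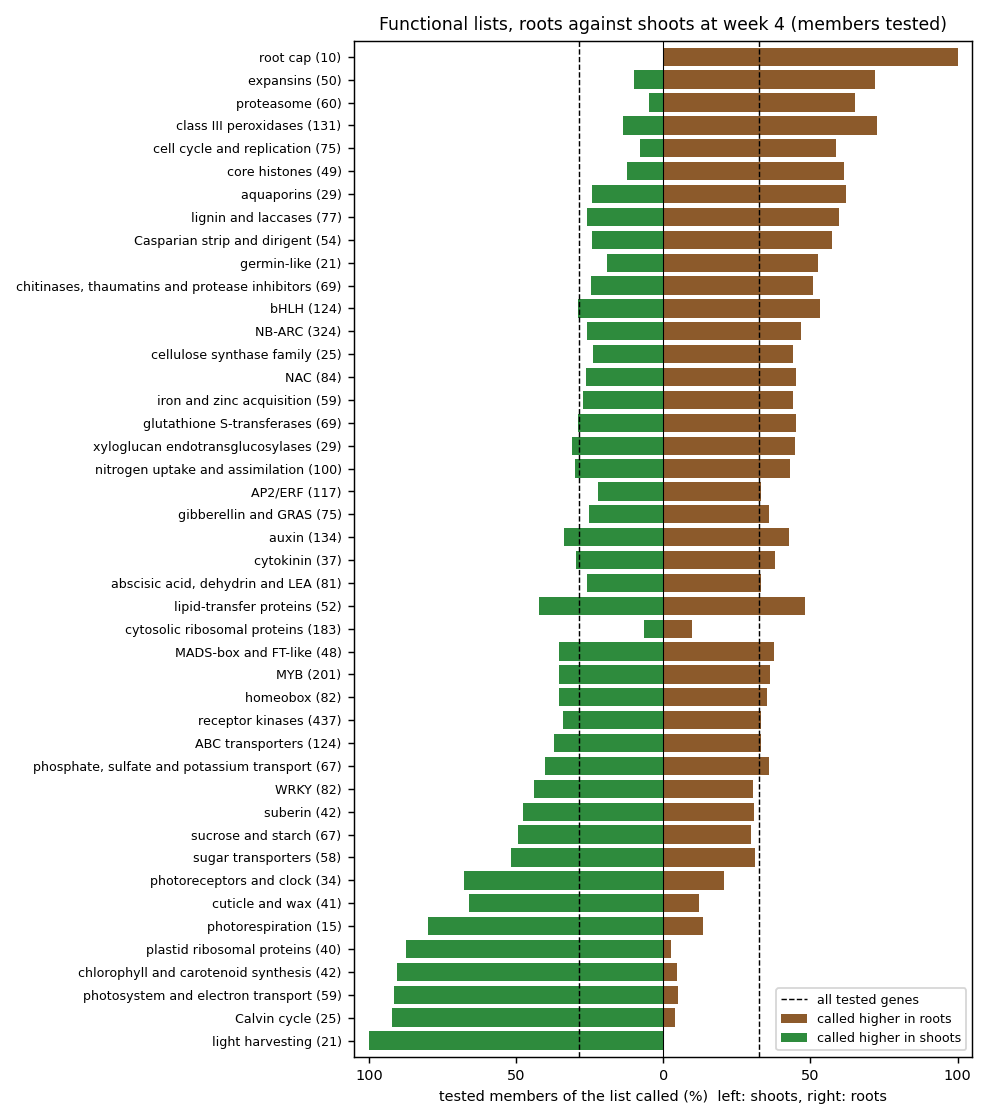
Percentage of the tested members of each of 44 functional lists called higher in roots (brown, right) or in shoots (green, left) at week 4, with the number of tested members in brackets and dashed lines at the percentages over all tested genes (32.4% and 28.5%). Photosynthesis lists lie at the shoot end and root cap, class III peroxidase and expansin lists at the root end.

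Photosynthesis genes were higher in shoots with few exceptions. All 21 tested light-harvesting genes were called higher in shoots, with a median difference of -3.56. None was called higher in roots, and none was higher there at an unadjusted p below 0.05 in edgeR (0 genes), by DESeq2 (0) or by limma-voom (0). Of 59 tested photosystem and electron transport genes, 54 were called higher in shoots and 3 in roots (median -2.90). The Calvin cycle, which fixes carbon dioxide, had 23 of 25 genes called higher in shoots and 1 in roots (median -2.69). Photorespiration, which salvages the product of Rubisco's reaction with oxygen, had 12 of 15 called higher in shoots and 2 in roots (median -2.65).

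The Rubisco small chain PWS4.3 (BdiBd21-3.4G0116800, chromosome 4, 7499269 to 7500283), a subunit of the carbon-fixing enzyme, had the highest shoot level per kb among the Calvin cycle genes, at 19046 CPM per kb. Its level was 1384, 1099.5 and 1134 CPM in the roots and 10229.6, 13130.4 and 11095 CPM in the shoots (log2 difference -3.25, SE 0.26, edgeR adjusted p = 6.01e-07). All 3 shoot libraries lay far above the 3 roots, yet the root levels were high too. Plastid carbonic anhydrase (BdiBd21-3.2G0571000, chromosome 2, 44736683 to 44743431), which interconverts carbon dioxide and bicarbonate, had 401, 290.2 and 205 CPM in the roots and 9191, 11492 and 9753 CPM in the shoots (log2 difference -5.08, SE 0.69, edgeR adjusted p = 8.1e-05). Chlorophyll a-b binding protein 2 (BdiBd21-3.3G0563100, chromosome 3, 44059889 to 44060671), an antenna protein, had 617, 457 and 455 CPM in the roots and 5631, 8658 and 6065 CPM in the shoots (log2 difference -3.73, SE 0.42, edgeR adjusted p = 1.22e-05). Neither gene's root values came near its shoot values. Plastocyanin (BdiBd21-3.1G0697600, chromosome 1, 51314163 to 51314771), the copper carrier that feeds photosystem I, had 643, 537 and 414 CPM in the roots and 4963, 6256 and 4955 CPM in the shoots (log2 difference -3.34, SE 0.30, edgeR adjusted p = 1.9e-06). Rubisco small chain and chlorophyll a-b binding genes occur as near-identical copies, so the share of reads assigned to each copy is uncertain.

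Genes that build the chloroplast were shoot genes too. Of 42 tested genes of chlorophyll and carotenoid synthesis, 38 were called higher in shoots and 2 in roots (median -1.45). Protochlorophyllide reductase A (BdiBd21-3.5G0344600, chromosome 5, 27592537 to 27594144), the light-driven step of chlorophyll synthesis, was near 0 in roots. Its level was 0.2903, 0.488 and 0.8 CPM in the roots and 246, 246 and 180.3 CPM in the shoots (log2 difference -8.72, SE 0.60, edgeR adjusted p = 7.1e-07). GLK2 (BdiBd21-3.2G0108800, chromosome 2, 6650607 to 6656701), whose relatives in maize, rice and Arabidopsis switch on chloroplast genes, had 5.47, 2.67 and 4.25 CPM in the roots and 291, 350.4 and 304 CPM in the shoots (log2 difference -6.26, SE 0.34, edgeR adjusted p = 7.35e-08). The organs did not overlap for either gene, as their choice required. Plastid ribosomal proteins, which translate the chloroplast's own messages, had 35 of 40 genes called higher in shoots and 1 in roots (median -1.83).

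Some genes of these pathways were higher in roots, as members of the same lists or enzyme families. Glycolate oxidase GLO1 (BdiBd21-3.1G0086500, chromosome 1, 4382888 to 4385602), the peroxisomal oxidase of photorespiration, had 415, 305 and 289.8 CPM in the roots and 2274, 2930.3 and 2762 CPM in the shoots (log2 difference -2.98, SE 0.26, edgeR adjusted p = 1.37e-06). GLO3 (BdiBd21-3.5G0291100, chromosome 5, 25008879 to 25012741), of the same enzyme family, had the opposite pattern, with 132, 143 and 119 CPM in the roots and 3.298, 1.94 and 4.24 CPM in the shoots (log2 difference 5.37, SE 0.32, edgeR adjusted p = 1.39e-07). Each was separated between the organs without overlap, as their choice required. Ferredoxin-6 (BdiBd21-3.2G0316100, chromosome 2, 21583188 to 21585249), an electron carrier of plastids, had 136, 181 and 207 CPM in the roots and 17.3, 13.03 and 17.4 CPM in the shoots (log2 difference 3.46, SE 0.21, edgeR adjusted p = 9.62e-08). Plastid aldolase 3 (BdiBd21-3.2G0016100, chromosome 2, 802120 to 805724), of the Calvin cycle list by its name, had 181, 217 and 251 CPM in the roots and 54.6, 42.5 and 42.5 CPM in the shoots (log2 difference 2.21, SE 0.14, edgeR adjusted p = 1.39e-07) and was the only member of that list called higher in roots. Both sat higher in every root library than in any shoot library, which their choice required. A less abundant Rubisco small chain gene (BdiBd21-3.5G0058000, chromosome 5, 5353864 to 5355242) had 0.332, 0 and 0 CPM in the roots and 117, 72.3 and 18.5 CPM in the shoots (log2 difference -9.26, SE 1.47, edgeR adjusted p = 0.000788), and its shoot values spread more than those of the PWS4.3 gene described above. With limma-voom its adjusted p was 0.0659.

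Several genes of the shoot surface had no or almost no counts in roots. Of 41 tested cuticle and wax genes, 27 were called higher in shoots and 5 in roots, with a median of -2.87. The 3-ketoacyl-CoA synthase 12 gene (BdiBd21-3.1G0826000, chromosome 1, 61020339 to 61022533), of the enzymes that lengthen fatty acids for waxes, had 0, 0 and 0 CPM in the roots and 120, 204 and 179 CPM in the shoots, at least 4160-fold higher in shoots (edgeR adjusted p = 4.83e-08). For such folds the organ without counts was set to a floor of 3 counts in all. Synthase 10 (BdiBd21-3.1G0974900, chromosome 1, 70988211 to 70991774) had 0.0829, 0.188 and 0.168 CPM in the roots and 224, 237 and 196 CPM in the shoots (log2 difference -10.48, SE 0.29, edgeR adjusted p = 2.03e-09). ABC transporter G family member 12 (BdiBd21-3.2G0402800, chromosome 2, 31518271 to 31524159), whose Arabidopsis namesake exports wax, had 0, 0 and 0 CPM in the roots and 84.9, 98 and 76.3 CPM in the shoots, at least 2145-fold higher in shoots (edgeR adjusted p = 2.13e-07). None of these genes had a root value above 0.188 CPM.

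Lipid-transfer proteins, small secreted lipid carriers, were divided more evenly, with 25 of 52 called higher in roots and 22 in shoots. Non-specific lipid-transfer protein 3 (BdiBd21-3.4G0615700, chromosome 4, 48023178 to 48023915) had 0.0415, 0 and 0 CPM in the roots and 610.1, 654 and 411 CPM in the shoots, with 1 count over all roots. The ratio of shoots to roots was 41610, with a 95% exact counting interval of 7468 to 1643566 (edgeR adjusted p = 1.14e-08). A gene with a glycine-rich protein domain (BdiBd21-3.1G0599400, chromosome 1, 44484130 to 44485441), a family known from cell walls, had 0, 0 and 0 CPM in the roots and 296, 394 and 323 CPM in the shoots, at least 8390-fold higher in shoots (edgeR adjusted p = 1.13e-08). Fatty acyl-CoA reductase 3 (BdiBd21-3.4G0528600, chromosome 4, 43083855 to 43089092), which in Arabidopsis makes the primary alcohols of shoot wax, had 0.207, 0.451 and 0.5895 CPM in the roots and 117, 160.2 and 116 CPM in the shoots (log2 difference -8.28, SE 0.39, edgeR adjusted p = 3.4e-08). It counted in the suberin list through its family name, beside root members described below.

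Of 34 tested photoreceptor and clock genes, 23 were called higher in shoots and 7 in roots (median -0.61). B-box zinc finger protein 24 (BdiBd21-3.5G0182700, chromosome 5, 17958206 to 17959923), a light-signalling regulator, had 38.6, 25.9 and 23.3 CPM in the roots and 388, 449 and 448 CPM in the shoots (log2 difference -3.87, SE 0.19, edgeR adjusted p = 2.44e-08). Phytochrome A type 3 (BdiBd21-3.1G0140900, chromosome 1, 7757648 to 7765385), a red and far-red light receptor that accumulates in the dark, stood on the root side with 48.97, 47.4 and 37.01 CPM in the roots and 0.883, 0.569 and 0.477 CPM in the shoots (log2 difference 6.08, SE 0.36, edgeR adjusted p = 1.06e-07). These 2 genes were each separated without overlap, as their choice required, in opposite directions.

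MADS-box and FT-like genes split almost evenly, 18 of 48 tested (37.5%) being called higher in roots and 17 (35.4%) in shoots. Both lay near the shares over all tested genes, 32.4% and 28.5%. FLOWERING LOCUS T (BdiBd21-3.1G0518300, chromosome 1, 34733071 to 34735475), which encodes the leaf-made flowering signal of Arabidopsis and rice, had 0, 0 and 0 CPM in the roots and 35.4, 51.7 and 34.3 CPM in the shoots, at least 1004-fold higher in shoots (edgeR adjusted p = 1.58e-06). CEN-like protein 2 (BdiBd21-3.3G0595200, chromosome 3, 46647297 to 46649246), of the related TFL1 family, which in Arabidopsis keeps shoot tips from flowering, was a root gene here. It had 23.5, 17.9 and 20.3 CPM in the roots and 0.0464, 0 and 0 CPM in the shoots, and its ratio of roots to shoots was 1188, with a 95% exact counting interval of 213 to 46951 (edgeR adjusted p = 2.06e-07). MADS-box transcription factor 27 (BdiBd21-3.5G0157300, chromosome 5, 16149652 to 16167174) had 48.2, 55.4 and 44.8 CPM in the roots and 7.2, 8.65 and 6.14 CPM in the shoots (log2 difference 2.75, SE 0.22, edgeR adjusted p = 5.88e-07). Every root library exceeded every shoot library for the last 2 genes, as their choice required.

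Carbon export, transport and storage genes divided by member. Of 58 tested sugar transporters, 30 were called higher in shoots and 18 in roots (median -0.54), and of 67 sucrose and starch genes 33 were called higher in shoots and 20 in roots (median -0.29). Shares over all tested genes were 28.5% in shoots and 32.4% in roots. SWEET13 (BdiBd21-3.4G0103700, chromosome 4, 6412453 to 6414594), whose maize namesakes pass sucrose to the phloem of leaves, had 28.8, 13.4 and 12.9 CPM in the roots and 717, 966 and 833 CPM in the shoots (log2 difference -5.51, SE 0.85, edgeR adjusted p = 0.000269). The large subunit of glucose-1-phosphate adenylyltransferase (BdiBd21-3.1G0129800, chromosome 1, 6984966 to 6990060), which commits glucose to starch, had 73.6, 63.4 and 64.9 CPM in the roots and 435, 575 and 536 CPM in the shoots (log2 difference -2.94, SE 0.18, edgeR adjusted p = 9.03e-08). Both were shoot genes with no overlap, which their choice required. Sucrose synthase 1 (BdiBd21-3.1G0816300, chromosome 1, 60267657 to 60273920), which cleaves sucrose in importing tissues, had 1148, 1807 and 2209 CPM in the roots and 321, 196 and 86.2 CPM in the shoots (log2 difference 3.10, SE 0.41, edgeR adjusted p = 5.54e-05). Its values varied within each organ, but the lowest root value was above the highest shoot value.

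Water channels were largely root genes. Of 29 tested aquaporins, 18 were called higher in roots and 7 in shoots, with a median difference of 1.46. Their summed CPM in roots was 2.44 times that in shoots, against 0.7725 times over all genes. TIP1-1 (BdiBd21-3.1G1005600, chromosome 1, 72845339 to 72847749), a channel of the vacuolar membrane, had 1907, 2183 and 1890.0 CPM in the roots and 444, 471 and 336 CPM in the shoots (log2 difference 2.26, SE 0.18, edgeR adjusted p = 7.46e-07). NIP2-1 (BdiBd21-3.3G0782100, chromosome 3, 58613855 to 58617774), named like the silicon channel of rice roots and chosen after its values were seen, had 419, 570.1 and 476 CPM in the roots and 8.13, 9.903 and 9.64 CPM in the shoots (log2 difference 5.73, SE 0.40, edgeR adjusted p = 5.75e-07). PIP2-7 (BdiBd21-3.4G0509600, chromosome 4, 41990442 to 41992066), a plasma membrane channel, had the reverse pattern with 80.2, 49.2 and 47.03 CPM in the roots and 1372, 1812 and 1436 CPM in the shoots (log2 difference -4.71, SE 0.36, edgeR adjusted p = 7.22e-07). None of these 3 channels overlapped between the organs, which the choice of TIP1-1 and PIP2-7 required.

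Nitrogen genes included isozymes with opposite organ levels. Of 100 tested genes of nitrogen uptake and assimilation, 43 were called higher in roots and 30 in shoots (median 0.23), against 32.4% and 28.5% of all tested genes. Cytosolic glutamine synthetase 1-2 (BdiBd21-3.1G0937700, chromosome 1, 68734378 to 68738413), which captures ammonium in roots of rice, had 617, 2375 and 2135 CPM in the roots and 134, 135 and 162 CPM in the shoots (log2 difference 3.57, SE 0.48, edgeR adjusted p = 8.16e-05). Root replicate 1 held much less than the other root libraries but still exceeded every shoot. Plastid glutamine synthetase (BdiBd21-3.5G0322200, chromosome 5, 26460525 to 26465180), the leaf form that recaptures ammonium from photorespiration and chosen after its values were seen, had 467, 512 and 501 CPM in the roots and 1649.5, 1928 and 1725 CPM in the shoots (log2 difference -1.84, SE 0.18, edgeR adjusted p = 4.31e-06).

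Asparagine synthetase 1 (BdiBd21-3.1G0882800, chromosome 1, 65170485 to 65174380), which stores nitrogen in asparagine, had 1079.9, 1404 and 1534 CPM in the roots and 11.6, 1.42 and 48.2 CPM in the shoots (log2 difference 6.04, SE 1.00, edgeR adjusted p = 0.000466). The shoot libraries spread widely at low level, and every root library was far above them. Ammonium transporter 1 member 2 (BdiBd21-3.3G0650000, chromosome 3, 50316524 to 50318832), chosen after its values were seen, had 81.8, 287 and 188 CPM in the roots and 0.325, 0.0569 and 0.318 CPM in the shoots (log2 difference 9.56, SE 1.05, edgeR adjusted p = 2.54e-05). Its root replicate 1 was again the lowest of the roots, and all shoots were below 1 CPM.

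Phosphate, sulfate and potassium transport had 24 of 67 tested genes (35.8%) called higher in roots and 27 (40.3%) in shoots (median -0.13). Iron and zinc acquisition had 26 of 59 (44.1%) in roots and 16 (27.1%) in shoots (median 0.58). The shares over all tested genes were 32.4% and 28.5%. PHO1-2 (BdiBd21-3.3G0727000, chromosome 3, 55307276 to 55313734), the carrier that in rice loads phosphate into the xylem, had 242, 251 and 254 CPM in the roots and 10.2, 15.1 and 10.9 CPM in the shoots (log2 difference 4.37, SE 0.25, edgeR adjusted p = 7.01e-08). Inorganic phosphate transporters 2-1, 1-8 and 1-11 were called higher in shoots. Their means were 22.18, 104.5 and 0 CPM in the roots and 202.2, 247.7 and 14.6 CPM in the shoots. A 2'-deoxymugineic-acid 2'-dioxygenase (BdiBd21-3.4G0605300, chromosome 4, 47469081 to 47470892), named for an enzyme that modifies mugineic acids in iron-starved barley roots, had 787, 803 and 1184 CPM in the roots and 0.557, 0.171 and 0.212 CPM in the shoots (log2 difference 11.45, SE 2.23, edgeR adjusted p = 0.00129). Every root library exceeded every shoot library for PHO1-2 and this dioxygenase, as their choice required. Nicotianamine synthase 9 (BdiBd21-3.1G0223500, chromosome 1, 13836417 to 13838305), which makes the precursor of mugineic acids and a metal chelator, had 0.788, 1.77 and 0.716 CPM in the roots and 75.5, 164 and 113 CPM in the shoots (log2 difference -6.73, SE 0.45, edgeR adjusted p = 4.32e-07). A metallothionein-like protein 1 gene (BdiBd21-3.2G0379100, chromosome 2, 27260331 to 27260994), of a family of small metal-binding proteins, had 477, 459 and 595 CPM in the roots and 16.1, 16.3 and 11.5 CPM in the shoots (log2 difference 5.12, SE 0.63, edgeR adjusted p = 5.61e-05).

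**Figure D2:**
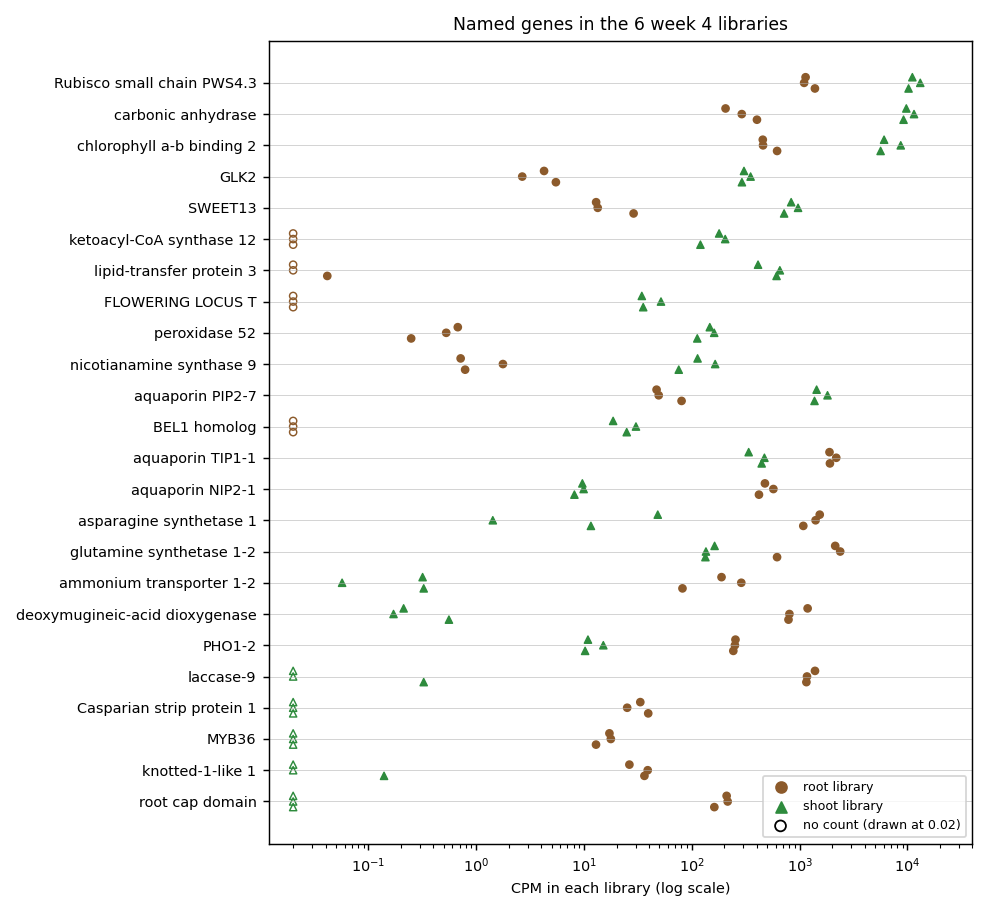
Level of 24 named genes in each of the 3 root (brown) and 3 shoot (green) libraries at week 4, on a log axis of CPM, with genes without a count drawn at a fixed low position. The root and shoot points of the genes shown are separate, as the choice of most of them required, and several genes have no count in 1 organ.

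Genes of the sealed endodermis included transcripts found in root libraries only at week 4. Of 54 tested Casparian strip and dirigent genes, 31 were called higher in roots and 13 in shoots (median 0.92). Casparian strip membrane protein 1 (BdiBd21-3.5G0204500, chromosome 5, 19403060 to 19404346), which in Arabidopsis marks where the lignin band forms and which was chosen after its values were seen, had 39.4, 25.1 and 33.2 CPM in the roots and 0, 0 and 0 CPM in the shoots, at least 629-fold higher in roots (edgeR adjusted p = 2.3e-07). MYB36 (BdiBd21-3.1G0098800, chromosome 1, 5170286 to 5171878), which in Arabidopsis switches on Casparian strip genes, had 12.9, 17.7 and 17.2 CPM in the roots and 0, 0 and 0 CPM in the shoots, at least 308-fold higher in roots (edgeR adjusted p = 6.58e-08). Dirigent protein 3 (BdiBd21-3.1G0272900, chromosome 1, 16897759 to 16898851), of proteins that guide the coupling of phenolics, had 68.2, 58.05 and 78.8 CPM in the roots and 0, 0 and 0 CPM in the shoots, at least 1321-fold higher in roots (edgeR adjusted p = 2.48e-07). No shoot library held a count of any of these 3 genes.

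By number the suberin list leaned to shoots, with 20 of 42 tested genes called higher there and 13 in roots (median -0.76). Its families also make cutin and wax, as the fatty acyl-CoA reductase above shows. Cytochrome P450 86A1 (BdiBd21-3.2G0707100, chromosome 2, 53429140 to 53431224), which in Arabidopsis oxidises fatty acids for root suberin, had 36.5, 48.9 and 57.1 CPM in the roots and 1.997, 1.14 and 0.953 CPM in the shoots (log2 difference 5.10, SE 0.26, edgeR adjusted p = 3.24e-08). Every root library was above every shoot library, as its choice required.

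Lignin genes and wall peroxidases formed a large root group. Of 77 tested lignin and laccase genes, 46 were called higher in roots and 20 in shoots (median 0.97). Phenylalanine ammonia-lyase (BdiBd21-3.3G0653500, chromosome 3, 50585136 to 50588934), the entry to phenylpropanoids, had 2836, 2686 and 2906 CPM in the roots and 673, 592 and 339 CPM in the shoots (log2 difference 2.39, SE 0.22, edgeR adjusted p = 2.16e-06). Putative laccase-9 (BdiBd21-3.3G0779500, chromosome 3, 58446142 to 58448774), of oxidases that polymerise lignin, had 1154, 1169 and 1386 CPM in the roots and 0.325, 0 and 0 CPM in the shoots (log2 difference 13.27, SE 0.58, edgeR adjusted p = 1.76e-08). Other genes with this description lie beside it, so its share of reads is uncertain. Of 131 tested class III peroxidases, 95 were called higher in roots and 18 in shoots, with a median of 4.01. Peroxidase 2 (BdiBd21-3.2G0151200, chromosome 2, 9467954 to 9469610) had 336, 419 and 580.5 CPM in the roots and 5.43, 10.3 and 8.16 CPM in the shoots (log2 difference 5.81, SE 0.34, edgeR adjusted p = 1.28e-07). Peroxidase 52 (BdiBd21-3.1G0537900, chromosome 1, 37869531 to 37871114) had 0.249, 0.526 and 0.674 CPM in the roots and 112, 161 and 147 CPM in the shoots (log2 difference -8.16, SE 0.50, edgeR adjusted p = 2.61e-07), a shoot gene in a root family.

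Expansins, a wall-loosening family, leaned to roots. Of 50 tested expansins, 36 were called higher in roots and 5 in shoots (median 3.04). Expansin-B2 (BdiBd21-3.3G0433500, chromosome 3, 35405433 to 35407432), of proteins that let walls extend, had 25.1, 49.6 and 50.9 CPM in the roots and 0, 0 and 0 CPM in the shoots, at least 809-fold higher in roots (edgeR adjusted p = 6.98e-05). Xyloglucan endotransglucosylases had 13 of 29 called higher in roots and 9 in shoots (median 0.40). Their summed CPM in roots was 0.827 times that in shoots, near the 0.7725 over all genes. The cellulose synthase family had 11 of 25 called higher in roots and 6 in shoots (median 0.48). Shares over all tested genes were 32.4% in roots and 28.5% in shoots.

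A neighbouring pair with the same description was split between the organs. Both genes are described as mixed-linked glucan synthase 3, of enzymes that make a wall glucan of grasses. The first (BdiBd21-3.1G0329500, chromosome 1, 20679111 to 20682745) had 20.9, 23.2 and 23.7 CPM in the roots and 0.511, 0 and 0 CPM in the shoots (log2 difference 6.87, SE 0.70, edgeR adjusted p = 1.03e-05). The second (BdiBd21-3.1G0329800, chromosome 1, 20702452 to 20707038) had 0.0415, 0 and 0 CPM in the roots and 38.9, 46.5 and 35.4 CPM in the shoots, and its ratio of shoots to roots was 2985, with a 95% exact counting interval of 535 to 117966 (edgeR adjusted p = 2.11e-08). The first was higher in roots and the second in shoots, without overlap, which their choice required. Their sequences were not compared, so how alike they are and how reads were shared between them is uncertain. Over the table, 913 neighbouring pairs of tested genes shared a description. Both members were called in 454 of them, both higher in roots in 219, both higher in shoots in 153 and in opposite directions in 82 (18.1%). Of 9812 other pairs of called neighbours, with different descriptions or with none, 4055 (41.3%) were opposite, a description without a test.

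Of 69 tested chitinases, thaumatins and protease inhibitors, families of secreted and defence proteins, 35 were called higher in roots and 17 in shoots (median 1.10). Their summed CPM in roots was 1.02 times that in shoots, against 0.7725 times over all genes. A PR-1 type gene (BdiBd21-3.1G0165000, chromosome 1, 9416966 to 9417828), of secreted defence proteins, had 2382, 1843 and 1801 CPM in the roots and 26.8, 65.5 and 22.9 CPM in the shoots, a root mean of 2328 CPM per kb (log2 difference 5.71, SE 1.01, edgeR adjusted p = 0.000713). Oxalate oxidase GF-2.8 (BdiBd21-3.1G0158800, chromosome 1, 9008428 to 9009517), a germin that makes hydrogen peroxide, had 670.5, 1314 and 1230.0 CPM in the roots and 15.2, 12.98 and 25.9 CPM in the shoots (log2 difference 5.89, SE 0.47, edgeR adjusted p = 1.52e-06). Subtilisin-chymotrypsin inhibitor-2A (BdiBd21-3.2G0500600, chromosome 2, 39000576 to 39001062), a protease inhibitor, had 276, 321 and 448 CPM in the roots and 0.325, 0 and 1.54 CPM in the shoots (log2 difference 9.12, SE 0.73, edgeR adjusted p = 2.32e-06). Root and shoot libraries did not overlap for any of these 3 genes. A Bowman-Birk wound-induced inhibitor (BdiBd21-3.2G0026200, chromosome 2, 1436834 to 1437398) had 302, 445 and 363 CPM in the roots and 0.232, 0 and 0 CPM in the shoots (log2 difference 11.98, SE 0.87, edgeR adjusted p = 1.19e-06).

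Germin-like genes had 11 of 21 called higher in roots and 4 in shoots (median 2.28). A shoot exception, germin-like protein 8-14 (BdiBd21-3.3G0496700, chromosome 3, 40128066 to 40129058), had 0, 0 and 0 CPM in the roots and 249, 89.9 and 21.3 CPM in the shoots, at least 2980-fold higher in shoots (edgeR adjusted p = 0.000234). Polyamine oxidase (BdiBd21-3.3G0287700, chromosome 3, 20038269 to 20042784), which breaks down polyamines, had 0, 0 and 0 CPM in the roots and 232, 384 and 65.8 CPM in the shoots, at least 5644-fold higher in shoots (edgeR adjusted p = 0.00119). Both ranged widely among shoot libraries, and with limma-voom their adjusted p-values were 0.0737 and 0.0855. The immune receptors of the NB-ARC class had 152 of 324 called higher in roots and 84 in shoots (median 0.40). RPP13-like protein 2 (BdiBd21-3.4G0618500, chromosome 4, 48161598 to 48166943) had 115, 111 and 112 CPM in the roots and 0, 0 and 0 CPM in the shoots, at least 2184-fold higher in roots (edgeR adjusted p = 2.9e-05). RPP13-like protein 4 (BdiBd21-3.4G0138700, chromosome 4, 9181057 to 9190769) had 0, 0 and 0 CPM in the roots and 90.9, 110.2 and 91.9 CPM in the shoots, at least 2425-fold higher in shoots (edgeR adjusted p = 7.04e-09). Receptor kinases were even, with 145 of 437 (33.2%) called higher in roots and 149 (34.1%) in shoots (median 0.00), against 32.4% and 28.5% of all tested genes.

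Tyrosine/DOPA decarboxylase 3 (BdiBd21-3.2G0654700, chromosome 2, 50299692 to 50301602), of enzymes that can make tyramine or dopamine, was detected in all root libraries and in no shoot library at week 4. Its level was 128, 145 and 154 CPM in the roots and 0, 0 and 0 CPM in the shoots, at least 2746-fold higher in roots (edgeR adjusted p = 8.85e-09).

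Auxin genes had 57 of 134 tested (42.5%) called higher in roots and 45 (33.6%) in shoots (median 0.18). Cytokinin genes had 14 of 37 (37.8%) in roots and 11 (29.7%) in shoots (median 0.46), against 32.4% and 28.5% of all tested genes. Auxin efflux carrier 2 (BdiBd21-3.1G0422900, chromosome 1, 27364635 to 27368983), which in Arabidopsis steers root gravity responses, had 25.4, 27.5 and 36.2 CPM in the roots and 0, 0 and 0 CPM in the shoots, at least 574-fold higher in roots (edgeR adjusted p = 9.79e-07). Cytokinin hydroxylase (BdiBd21-3.4G0420000, chromosome 4, 35685833 to 35688724), which makes the zeatin form exported from roots, had 36.8, 26.8 and 37.05 CPM in the roots and 0.0929, 0 and 0 CPM in the shoots, a ratio of roots to shoots of 965, with a 95% exact counting interval of 267 to 7972 (edgeR adjusted p = 2.87e-07). Cytokinin dehydrogenase 4 (BdiBd21-3.2G0774500, chromosome 2, 57320561 to 57323943), which degrades cytokinin, had 4.23, 2.67 and 3.03 CPM in the roots and 45.3, 69.5 and 84.8 CPM in the shoots (log2 difference -4.33, SE 0.33, edgeR adjusted p = 7.71e-07). The first 2 genes were near or at 0 in every shoot library and the third was higher in every shoot.

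Transcription factor families differed in their lean. WRKY genes had 25 of 82 called higher in roots and 36 in shoots (median -0.48), bHLH genes 66 of 124 in roots and 36 in shoots (median 0.67), and NAC genes 38 of 84 in roots and 22 in shoots (median 0.38). MYB genes were even, with 73 of 201 in roots and 71 in shoots (median 0.08), as were homeobox genes with 29 of 82 in each organ (median 0.12). Of all tested genes, 32.4% were called higher in roots and 28.5% in shoots. WRKY14 (BdiBd21-3.3G0694200, chromosome 3, 53281767 to 53286802) had 23.7, 24.6 and 21.6 CPM in the roots and 0, 0 and 0 CPM in the shoots, at least 450-fold higher in roots (edgeR adjusted p = 3.51e-08). WRKY28 (BdiBd21-3.1G0413500, chromosome 1, 26668432 to 26670256) had 31.6, 34.1 and 83.5 CPM in the roots and 412, 194 and 178 CPM in the shoots (log2 difference -2.39, SE 0.67, edgeR adjusted p = 0.0104). MYBAS2 (BdiBd21-3.2G0803300, chromosome 2, 58650166 to 58652121), a MYB factor, had 1652, 1371 and 1072 CPM in the roots and 156, 283 and 226 CPM in the shoots (log2 difference 2.62, SE 0.30, edgeR adjusted p = 1.55e-05).

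Among homeobox genes, a knotted-1-like 1 gene (BdiBd21-3.2G0153800, chromosome 2, 9691104 to 9697880), of a class that in maize maintains shoot meristems, had 36.3, 38.9 and 26.3 CPM in the roots and 0.139, 0 and 0 CPM in the shoots, a ratio of roots to shoots of 658, with a 95% exact counting interval of 225 to 3193 (edgeR adjusted p = 1.37e-07). BEL1 homolog (BdiBd21-3.1G0691800, chromosome 1, 50992817 to 50996029), of the partner class of knotted-like proteins, had 0, 0 and 0 CPM in the roots and 24.9, 30.3 and 18.6 CPM in the shoots, at least 610-fold higher in shoots (edgeR adjusted p = 3.63e-07). HOX5 (BdiBd21-3.3G0471300, chromosome 3, 38023799 to 38028665), a leucine zipper homeobox factor, had 358, 375 and 314 CPM in the roots and 76.7, 64.3 and 63.4 CPM in the shoots (log2 difference 2.36, SE 0.14, edgeR adjusted p = 8.77e-08). No root value overlapped a shoot value for these 3 genes, as their choice required.

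Root cap genes were all on the root side. All 10 tested root cap domain genes were called higher in roots, with a median of 10.34, and none in shoots (0 genes at an unadjusted p below 0.05, 0 by DESeq2 and 0 by limma-voom). Of the 11 in the table, 6 had no count in any week 4 shoot library. A root cap domain gene (BdiBd21-3.2G0795500, chromosome 2, 58332796 to 58334460) had 162, 215 and 210 CPM in the roots and 0, 0 and 0 CPM in the shoots, at least 3776-fold higher in roots (edgeR adjusted p = 1.97e-08).

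Proteasome subunits, which degrade tagged proteins, had 39 of 60 tested called higher in roots and 3 in shoots, but with a median of only 0.37. Cytosolic ribosomal proteins had 18 of 183 called higher in roots and 12 in shoots (median 0.06), both below the shares over all genes. Leaving out root replicate 3 or shoot replicate 2 lowered the count in roots to 7 and 6. Cell cycle and replication genes had 44 of 75 in roots and 6 in shoots (median 1.04). Core histones, which package new DNA, had 30 of 49 in roots and 6 in shoots (median 1.44).

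Shoot replicate 1 lay nearest the roots for this machinery, with a summed CPM of cell cycle genes of 1141 against 969 and 971 in the other shoots and 1329 to 1556 in roots. Histone H3.2 (BdiBd21-3.1G0643532, chromosome 1, 47812866 to 47813852) had 10.2, 12.6 and 15.8 CPM in the roots and 4.599, 0.342 and 0.212 CPM in the shoots (log2 difference 2.85, SE 0.74, edgeR adjusted p = 0.00706), with shoot replicate 1 well above the other shoots. MCM2 (BdiBd21-3.4G0269800, chromosome 4, 21885859 to 21892367), a subunit of the replication helicase that was chosen after its values were seen, had 26.3, 27.3 and 39.9 CPM in the roots and 12.4, 2.16 and 1.75 CPM in the shoots (log2 difference 2.50, SE 0.59, edgeR adjusted p = 0.0041). Cyclin-D5-2 (BdiBd21-3.1G0195600, chromosome 1, 11729806 to 11732488), of cyclins that start the cell cycle, had 30.3, 17.2 and 20.4 CPM in the roots and 0.372, 0.285 and 0.5296 CPM in the shoots (log2 difference 5.81, SE 0.37, edgeR adjusted p = 1.31e-07), and its shoot libraries did not differ in this way. Summed CPM of the core histones was 1936, 1861 and 2161 in roots and 1889, 1379 and 1317 in shoots, so shoot replicate 1 overlapped the roots. Without shoot replicate 1, 38 histones were called higher in roots, and the counts of histones over the omissions of single libraries ran from 21 to 38. A fit of the week 4 libraries alone called 16. Why this library lay nearer the roots was not tested.

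The size of the organ difference was then compared with that at week 2 in 1 model over all 12 libraries. An interaction was called for 2254 genes (8.52%). In 1737 (6.56%) the root minus shoot difference was more positive at week 4, and in 517 (1.95%) more negative. This count was sensitive to single libraries. It ran from 1318 to 3542, the highest without week 4 shoot replicate 1. Omitting root replicate 2 of week 2 gave 1422, and omitting root replicate 2 of week 4 gave 1323. Omitting shoot replicate 1 of week 2 gave 1434, and omitting shoot replicate 2 of week 2 gave 1318.

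Most photosynthesis lists carried a smaller shoot lead at week 4. The interaction was called more positive for 16 of 21 light-harvesting genes, 38 of 59 photosystem and electron transport genes, 12 of 25 Calvin cycle genes, 23 of 42 chlorophyll and carotenoid genes and 35 of 40 plastid ribosomal proteins. Median differences were -5.72 at week 2 and -3.56 at week 4 for light harvesting, -4.01 and -2.90 for photosystems, and -3.11 and -1.83 for plastid ribosomal proteins. Photorespiration changed little, with medians of -2.77 and -2.65 and 4 of 15 interactions called more positive. Without week 2 shoot replicate 1 the light-harvesting count was 14, the photosystem count 27, the Calvin cycle count 6 and the plastid ribosomal count 34. The shoot ranges of the light-harvesting sum overlapped between the weeks and the root ranges did not. The sum in roots was 927, 1746 and 2252 at week 2 against 6310 to 7261 at week 4, while shoots held 63511 to 78361 at week 2 and 63173 to 86337 at week 4. For plastid ribosomal proteins both organs moved, from 1235 to 1550 CPM in week 2 roots to 1905 to 2097 at week 4, and from 11125 to 11297 CPM in week 2 shoots to 6919 to 7505 at week 4. Chlorophyll a-b binding protein 2 had 27.4, 65.3 and 102 CPM in the roots and 6827, 5759 and 4607 in the shoots at week 2 (interaction 2.73, SE 0.54, edgeR adjusted p = 0.0122). Plastid ribosomal protein L35 (BdiBd21-3.1G0411600, chromosome 1, 26519974 to 26521473) had 34.6, 32.04 and 33.3 CPM in the roots and 366, 374 and 377 in the shoots at week 2, and 47.8, 39.9 and 47.03 CPM in the roots and 223, 238 and 216 CPM in the shoots at week 4 (interaction 1.16, SE 0.13, edgeR adjusted p = 0.000747).

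**Figure D3:**
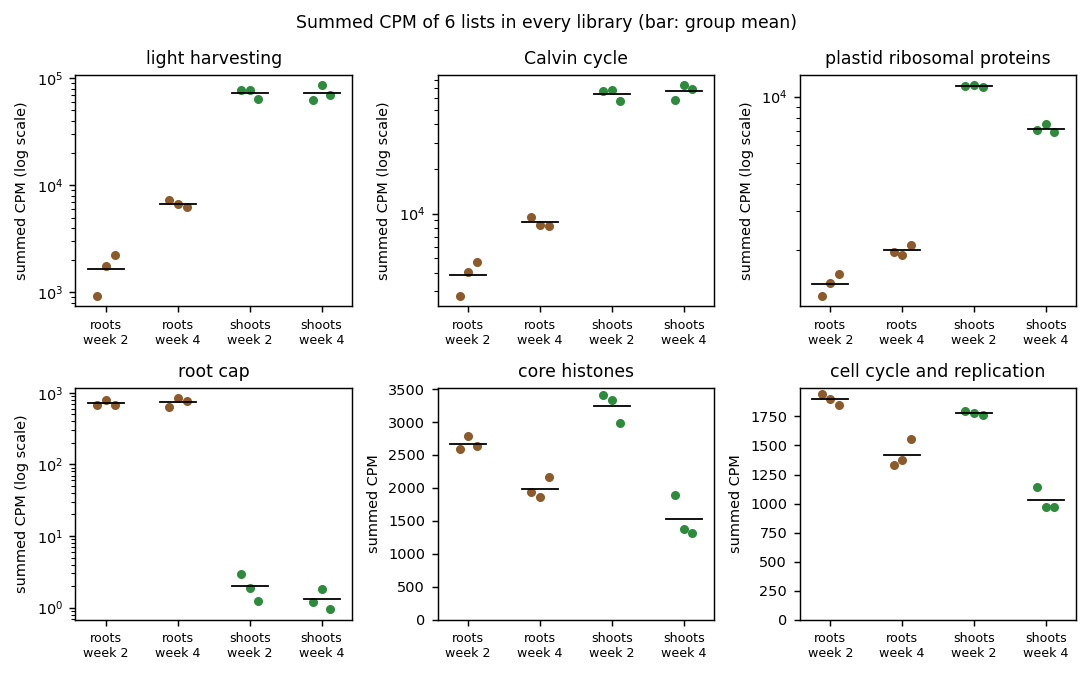
Summed CPM per library of light-harvesting, Calvin cycle, plastid ribosomal, core histone, cell cycle and root cap genes in roots (brown) and shoots (green) at weeks 2 and 4. Light-harvesting sums in roots rise from 927 to 2252 at week 2 to 6310 to 7261 at week 4, and core histone sums of week 4 shoots lie at 1317 to 1889 against 2982 to 3415 at week 2.

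Histone and replication genes had a higher median difference at week 4 than at week 2. Core histones had a median difference of -0.26 at week 2 and 1.44 at week 4, and cell cycle genes of 0.07 and 1.04. The interaction was called more positive for 7 of 49 histones and 11 of 75 cell cycle genes, against 6.56% of all tested genes. Without week 4 shoot replicate 1 these counts were 36 and 38, and without week 2 shoot replicate 1 they were 0 and 6. At week 2 MCM2 had 66.1, 61.5 and 53.9 CPM in the roots and 56.2, 56.9 and 56.7 in the shoots, ranges that overlap, and its interaction was not called (2.40, SE 0.79, edgeR adjusted p = 0.0919). Cyclin-D5-2 had 11.6, 14.4 and 16.6 CPM in the roots and 3.32, 4.18 and 1.99 in the shoots at week 2, and its interaction was called (3.66, SE 0.47, edgeR adjusted p = 0.00145).

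Individual genes also gained an organ lead. The knotted-1-like 1 gene had 49.5, 30.4 and 31.2 CPM in the roots and 5.78, 3.02 and 4.203 in the shoots at week 2, so the shoot level present at week 2 was at or near 0 at week 4 (interaction 6.11, SE 0.72, edgeR adjusted p = 0.00117). Phytochrome A type 3 had 33.3, 32.8 and 37.6 CPM in the roots and 6.18, 2.602 and 2.802 in the shoots at week 2 (interaction 2.92, SE 0.45, edgeR adjusted p = 0.00391). The chymotrypsin inhibitor had 145, 242 and 278 CPM in the roots and 16.99, 10.3 and 18.9 in the shoots (interaction 5.27, SE 0.83, edgeR adjusted p = 0.00588). In all 3 the shoot libraries of week 2 held more than every shoot library of week 4. Summed CPM of the root cap genes in shoots was 2.97, 1.86 and 1.24 at week 2, with replicate 1 the highest, against 1.21, 1.82 and 0.953 at week 4. The part of root material in these interactions was not tested.

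Fewer genes gained on the shoot side. Lipoxygenase 8 (BdiBd21-3.3G0527200, chromosome 3, 42171380 to 42176999), of enzymes that begin jasmonate synthesis, had 12.98, 4.79 and 3.14 CPM in the roots and 8.79, 28.5 and 33.03 in the shoots at week 2, and 1.33, 1.202 and 0.968 CPM in the roots and 143, 57.03 and 69.4 CPM in the shoots at week 4 (interaction -4.51, SE 0.92, edgeR adjusted p = 0.0177). A valine--tRNA ligase (BdiBd21-3.3G0398700, chromosome 3, 32517706 to 32526135), which charges a transfer RNA, had 6.16, 6.09 and 6.08 CPM in the roots and 2.11, 0.883 and 2.42 in the shoots at week 2, and 12.1, 10.7 and 9.47 CPM in the roots and 62.1, 17.4 and 85.4 CPM in the shoots at week 4 (interaction -4.12, SE 0.72, edgeR adjusted p = 0.00873). This last gene was on the root side at week 2 and on the shoot side at week 4, and its shoot replicate 2 held far less than the other shoots. With limma-voom the interactions of these 2 genes had adjusted p-values of 0.0874 and 0.0968.

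**Figure D4:**
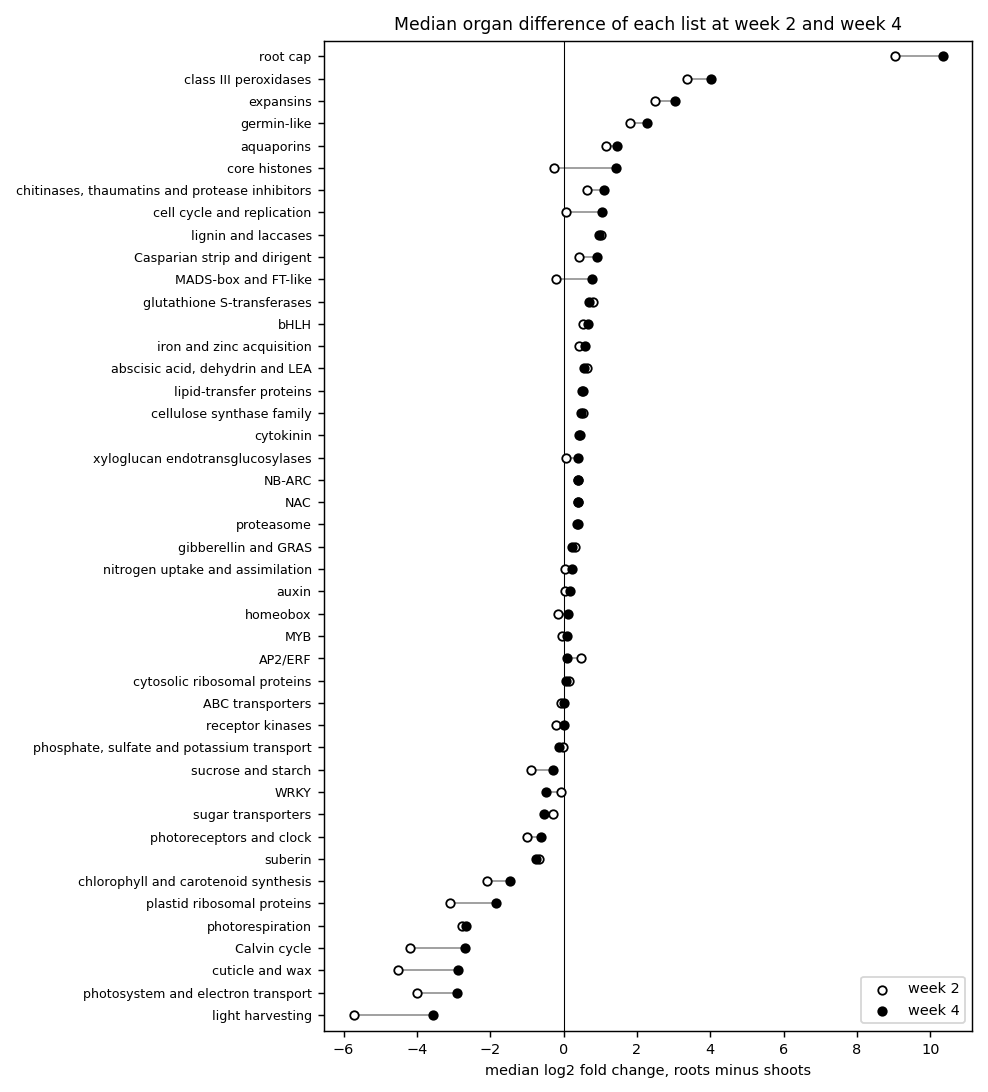
Median root minus shoot log2 difference of each functional list at week 2 and at week 4. Photosynthesis lists lie below 0 at both weeks and nearer 0 at week 4 (light harvesting -5.72 and -3.56), while core histones move from -0.26 to 1.44.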

How the data were processed

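RNA of whole roots and whole shoots was measured by poly-A RNA-seq. The authors deposited a table of raw read counts per gene with no scaling, and other columns give positions, lengths and descriptions. Per the submitters' processing notes, HISAT2 2.0.5, featureCounts 1.5.0-p3 and HTSeq 0.6.1 were named, without their roles. Build, strand setting and the handling of multiply matching reads were not given in the sources used here, so antisense partners and close copies are uncertain. Positions are those of the deposited table. Columns were matched to samples by tissue, week and replicate number. The codes in brackets in all 3 week 4 shoot titles end in 1, so which of these libraries is replicate 1 rests on the replicate number alone.

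The counts were fitted with edgeR 4.0.16 (R 4.3.3). The filterByExpr rule (minimum count 10, total 15) left 26463 genes, and 5527 of 39068 had no count. TMM scaling and a quasi-likelihood model with 1 mean for each of the 4 groups of 3 were fitted to all 12 libraries. Contrasts were root minus shoot at week 4 and its difference from week 2. P-values were two-sided and adjusted by Benjamini-Hochberg over all tested genes, with 0.05 as the threshold. Log2 differences used a prior count of 0.125, and the standard error is the absolute difference over the square root of F, which can be too small against few counts. Folds against no count used a floor of 3 counts over the group. Intervals of 95% are exact binomial, and intervals and floors cover counting error only. Each replicate pair differed by more than sampling noise. The model was also run on simulated counts in which 200 genes were changed in week 4 roots and all others had equal group means. Far more genes differed between the organs in these data, so that run does not speak for this setting.

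Functional lists came from keywords in descriptions. Named genes are, per list, the 2 best expressed per kb in the organ with more calls and the largest fold in each direction, plus the highest and lowest over all genes and the largest interactions. Within lists, only called genes that did not overlap between organs qualified. The members and lists were chosen with earlier results of these data known. Alternatives were RLE and upper-quartile scaling, no filter, a filter of 1 CPM in 3 libraries, DESeq2 1.42.0, limma-voom 3.58.1, the week 4 libraries alone, the replicate block, an adjusted p of 0.01, a fold of 2 and leaving out each library.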

Additional observations from a re-analysis of the deposited data

Results flagged for a closer look

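The organ difference of 20 named genes had another size at week 4 than at week 2 by edgeR's interaction test. Each interaction below is the root minus shoot log2 difference at week 4 minus that at week 2. Groups of 3 libraries were not searched for outlying samples.

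Shoot genes whose lead was smaller at week 4 were the Rubisco small chain PWS4.3 (BdiBd21-3.4G0116800, interaction 1.51, from -4.76 to -3.25), chlorophyll a-b binding protein 2 (BdiBd21-3.3G0563100, 2.73, from -6.47 to -3.73) and plastid ribosomal protein L35 (BdiBd21-3.1G0411600, 1.16, from -3.48 to -2.33). The starch gene glucose-1-phosphate adenylyltransferase (BdiBd21-3.1G0129800, 1.27, from -4.20 to -2.94) and aquaporin PIP2-7 (BdiBd21-3.4G0509600, 1.66, from -6.37 to -4.71) were the others.

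Root genes whose lead was larger at week 4 included phytochrome A type 3 (BdiBd21-3.1G0140900, interaction 2.92, from 3.16 to 6.08), cyclin-D5-2 (BdiBd21-3.1G0195600, 3.66, from 2.16 to 5.81) and HOX5 (BdiBd21-3.3G0471300, 0.73, from 1.62 to 2.36). Of the protease inhibitors, BdiBd21-3.2G0500600 had 5.27 and BdiBd21-3.2G0026200 had 5.77. Fitted differences of genes with at most 5 counts over the week 4 shoots depend on the prior count. These were the wound inhibitor just named, CEN-like protein 2 (BdiBd21-3.3G0595200, 4.41), MYB36 (BdiBd21-3.1G0098800, 4.87), dirigent protein 3 (BdiBd21-3.1G0272900, 6.00) and cytokinin hydroxylase (BdiBd21-3.4G0420000, 4.37). The same holds for knotted-1-like 1 (BdiBd21-3.2G0153800, 6.11), WRKY14 (BdiBd21-3.3G0694200, 6.06), laccase-19 (BdiBd21-3.3G0027400, 9.02) and indole-3-glycerol phosphate lyase (BdiBd21-3.1G0071600, 8.71).

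Laccase-19 had 48.3, 23.6 and 25.2 CPM in week 2 roots, 7.59, 1.21 and 1.94 in week 2 shoots and 25.1, 29.7 and 26.1 CPM in the roots and 0, 0 and 0 CPM in the shoots at week 4. Indole-3-glycerol phosphate lyase, named for a maize enzyme that releases indole, had 14.2, 15.3 and 18.9 CPM in week 2 roots, 2.61, 0.186 and 0.754 in week 2 shoots and 31.7, 30.6 and 35.7 CPM in the roots and 0, 0 and 0 CPM in the shoots at week 4. In both, week 2 shoot replicate 1 held the most among shoots. Both interactions kept their call when that library was left out. Why that library held more was not tested.

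Differences that moved toward shoots were those of lipoxygenase 8 (BdiBd21-3.3G0527200, interaction -4.51, from -1.74 to -6.26) and valine--tRNA ligase (BdiBd21-3.3G0398700, -4.12, from 1.77 to -2.35). The second is the only one of the 20 whose difference changed sign between the weeks.

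Leaving out 1 library ended the call for 9 of the 20. The highest adjusted p that edgeR gave was 0.055 for BdiBd21-3.4G0116800 and 0.0549 for BdiBd21-3.1G0098800, both without week 2 shoot replicate 2, and these also lost the call without week 2 shoot replicate 1 (0.0508 and 0.0536). It was 0.0818 for BdiBd21-3.3G0595200, 0.0752 for BdiBd21-3.1G0272900, 0.0714 for BdiBd21-3.4G0420000 and 0.0704 for BdiBd21-3.3G0027400, each without week 4 shoot replicate 3. It was 0.101 for BdiBd21-3.4G0509600 without week 2 root replicate 2, 0.0917 for BdiBd21-3.3G0471300 without week 4 root replicate 2, and 0.0558 for BdiBd21-3.1G0071600 without week 2 root replicate 1. For these 7 genes other single omissions ended the call as well, with lower adjusted p-values. By limma-voom 7 of the 20 interactions were not called, those of BdiBd21-3.3G0595200, BdiBd21-3.1G0098800, BdiBd21-3.2G0026200, BdiBd21-3.4G0420000, BdiBd21-3.3G0027400, BdiBd21-3.3G0527200 and BdiBd21-3.3G0398700, with adjusted p-values of 0.0605 to 0.111.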

How the results depend on the processing

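The root to shoot comparison was stable in its totals. Over RLE and upper-quartile scaling, both filters, DESeq2, limma-voom, the week 4 libraries alone and an adjusted p of 0.01, 12938 to 16826 genes were called, 50.9% to 53.7% of them higher in roots. Against a fold of 2 the number was 7720, and leaving out each library in turn gave 14737 to 15880. No scaling moved the median difference by over 0.1. Of the values of the 74 named genes under the alternatives, 1177 kept their call and 4 lost it. These genes were called ones, mostly picked for high levels or large folds without overlap, so their stability does not speak for other called genes. No direction reversed. Interactions were less stable. Their number was 3806 with DESeq2, 614 at an adjusted p of 0.01, 61 against a fold of 2 and 1318 to 3542 when a library was left out. With the replicate number as a block, 15205 genes were called between the organs and 1032 interactions. The block ended the call of 13 of the 20 named interactions, with adjusted p-values of 0.0563 to 0.116. Deviations of same-numbered root and shoot libraries correlated at -0.171, 0.063 and -0.156 at week 4 and at 0.25, 0.107 and 0.175 at week 2. The numbers were therefore not taken to pair the samples at week 4 or over both weeks, while the week 2 values are a hint of pairing there. Against a fold of 2, the genes called in the organ where more of a list were called were 13 for photoreceptors and clock, 19 for sugar transporters, 13 for phosphate, sulfate and potassium, 15 for iron and zinc, 7 for cellulose synthases, 27 for ABC transporters, 94 for receptor kinases and 100 for NB-ARC. They were 23 for WRKY, 21 for NAC, 47 for MYB, 25 for AP2/ERF, 19 for homeobox, 21 for cell cycle, 10 for core histones, 0 for the proteasome and 0 for cytosolic ribosomal proteins. At an adjusted p of 0.01, 6 cytosolic ribosomal genes and 16 core histones were called higher in roots, and the week 4 libraries alone gave 16 core histones. Leaving out a library gave 6 to 23 cytosolic ribosomal genes and 21 to 38 core histones. A test against a fold and a lower p call fewer genes by construction, and the cause of the other shifts was not tested. Depth set a floor of 0.0403 CPM in week 4 roots and 0.0517 CPM in week 4 shoots for genes without counts.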

Other observations

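Detoxification and transport families showed no common organ. Of 69 tested glutathione S-transferases, which join glutathione to reactive compounds, 31 were called higher in roots and 20 in shoots (median 0.70). They were the list with the most interactions toward shoots for its size, 11 of 69 called more negative at week 4 and 5 more positive, against 1.95% and 6.56% of all tested genes. ABC transporters had 41 of 124 (33.1%) called higher in roots and 46 (37.1%) in shoots (median 0.02), against 32.4% and 28.5% of all tested genes. Gibberellin and GRAS genes had 27 of 75 (36%) in roots and 19 (25.3%) in shoots (median 0.24). Abscisic acid, dehydrin and LEA genes had 27 of 81 (33.3%) in roots and 21 (25.9%) in shoots (median 0.55). Both lists lay near the shares over all tested genes, 32.4% in roots and 28.5% in shoots. AP2/ERF factors had 39 of 117 (33.3%) in roots and 26 (22.2%) in shoots, and their median of 0.08 was 0.30 without shoot replicate 1.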
